A study of Mus musculus with 4 samples.

Results

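The cells described here are the Ly6c2-positive monocytes of the control library in a single-cell RNA study of embryonic mouse pancreas at E15.5. They were chosen by measured values: a cell was taken when it showed 500 or more genes, no more than 10% mitochondrial UMIs, 3 or more Ly6c2 UMIs, fewer than 4 Lyve1 UMIs, C1qa, C1qb and C1qc together under 6000 CPM, and Cpa1 under 1500 CPM. A UMI is a molecular barcode that counts 1 captured transcript, and CPM are UMIs per 1e6 UMIs of the cell or population. The rule found 75 cells among 941 barcodes of the control table, of which 925 passed the quality filters, and among 1558 barcodes in the whole series. They made up 8.11% of the filtered control cells (95% exact binomial interval 6.43% to 10.1%, counting error only).

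The study compared the pancreas of mice without the enzyme OGT, which adds O-GlcNAc to proteins, with that of controls. The controls carried floxed Ogt alleles (OGTflox/flox) with no Cre driver named and, per the series text, were sorted on an E-cadherin GFP reporter, whereas the knockout embryos (PdxCre;OGTflox/flox;CAG GFP) were sorted on endogenous GFP and carry a Cre driven by Pdx, a gene of the pancreatic epithelium. The sample labels call the control genotype WT. Both libraries were labelled as pancreatic epithelial cells, and each genotype was 1 library read in 2 sequencing runs that share a table. How many embryos were pooled is unknown from the sources used here.

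Monocytes are circulating myeloid cells made from bone marrow or, before birth, fetal liver progenitors. The classical type carries Ly6C and the chemokine receptor CCR2, leaves the blood under CCR2 ligands, and can mature into tissue macrophages or monocyte-derived dendritic cells. The patrolling type has less Ly6C and more CX3CR1 and relies on NR4A1.

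The labelled cell type was not what these barcodes held. Of the epithelial sort markers, Cdh1, which encodes E-cadherin, had 4 UMIs in 4 of the 75 monocytes, and Epcam stood at 23.2 CPM in them against 621 in the Cpa1-high cells of the same library, which are rich in acinar transcripts. The 12 epithelial genes listed summed to 261 CPM in the monocytes, 251 to 342 in the other myeloid populations and 3147 in the Cpa1-high cells. Acinar genes summed to 2706 CPM, near the 2723 to 3139 in the other myeloid populations, and every monocyte held them, at 1061 to 4595 CPM. Of 16 lymphoid markers 13 had no UMI in the monocytes and all 16 summed to 52.7 CPM, and of 11 mast cell and basophil markers 8 had none. Their part in any result below was not tested. Scrublet marked 6 control barcodes as doublets (0.638%), and none was a monocyte. No barcode occurred in both tables.

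The monocytes held 3980 to 39328 UMIs each (median 13009) and 1643 to 5916 genes (median 3391), with 1.49% to 4.84% mitochondrial UMIs. They were set beside 3 other myeloid populations of the same library, each defined by UMIs as well: 164 Lyve1 macrophages (Lyve1 at 4 or more UMIs with high C1q), 240 C1q-high Lyve1-low macrophages, and 52 Fcgr4-positive cells (Fcgr4 at 3 or more UMIs, Ly6c2 under 3, C1q low). Their median depths were 11313, 10082 and 14261 UMIs. With 1 library there is no replicate error and no test. Levels are UMIs summed over a population in CPM of its total, ratios carry exact 95% intervals for counting error only, and a gene was counted as higher or lower when its ratio, taken after adding 10 CPM to each population, was at least 2.

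Ly6c2 itself gave 3 to 53 UMIs per monocyte (median 7). The gene lies on chr15:75108158-75111970 of GRCm38 and encodes the glycosylphosphatidylinositol-anchored surface antigen Ly6C. Summed over the cells it stood at 666 CPM (619 to 716), against 10.9 in Lyve1 macrophages, 16.7 in C1q-high Lyve1-low macrophages, 19.1 in Fcgr4-positive cells and 12.6 in the Cpa1-high cells. These values follow from the rule and are given as a description. Its near-identical neighbour Ly6c1 had 6 UMIs in 6 monocytes and none in the other populations, and how the counting divides reads shared by the 2 copies is not stated, so the Ly6c2 level is uncertain to that extent. The monocytes held 78.5% of all Ly6c2 UMIs of the filtered control cells.

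The Ly6c2 limit cut through a gradual series rather than a gap. The 13 members with exactly 3 Ly6c2 UMIs had Hp at 549.8, Lgals3 at 1747 and Ccr2 at 1008 CPM. The 17 cells with 2 UMIs that met every other criterion had Hp at 677, Lgals3 at 1551 and Ccr2 at 879 CPM. The 275 cells without a Ly6c2 UMI had Hp at 177 CPM. S100a8 stood at 1368 CPM in the members with 3 UMIs and 1258 in the cells with 2. It was at 106 in the cells with 1 and 27.5 in those without. Only 1 filtered cell with enough Ly6c2 was left out, and Lyve1 was the reason (13 UMIs, with C1q at 4883 CPM). The C1q limit removed no cell: the members' summed C1q ran from 355 to 2229 CPM (median 902), close to the median of 1022 in the Cpa1-high cells and far under the 9172 of Lyve1 macrophages.

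The other markers of the name were present. Hp (haptoglobin, which binds free hemoglobin; chr8:109575128-109579172) had UMIs in 73 of the 75 cells and stood at 738 CPM (688 to 790). Its level was 30.9 in Lyve1 macrophages, 37.6 in the C1q-high Lyve1-low cells and 223 in Fcgr4-positive cells. Per cell it ran from 0 to 3015 CPM with a median of 677. The gene for galectin-3, a carbohydrate-binding lectin of myeloid cells (Lgals3, chr14:47367751-47386160), was found in all 75 cells at 226 to 3367 CPM (median 1818). Its summed level of 1736 CPM was 13.1 times that of Lyve1 macrophages (interval 11.6 to 14.8) and 2.14 times that of Fcgr4-positive cells (1.95 to 2.35). Napsa, an aspartic protease gene on chr7:44572380-44586862, was in all 75 as well, at 477 CPM against 20.9, 34.2 and 316 in the other myeloid populations. The Fcgr4-positive cells thus overlapped with the monocytes in these genes, and both macrophage populations were within 2-fold of the Cpa1-high cells, where Hp was 28.7 and Napsa 22.4 CPM.

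**Figure D1:**
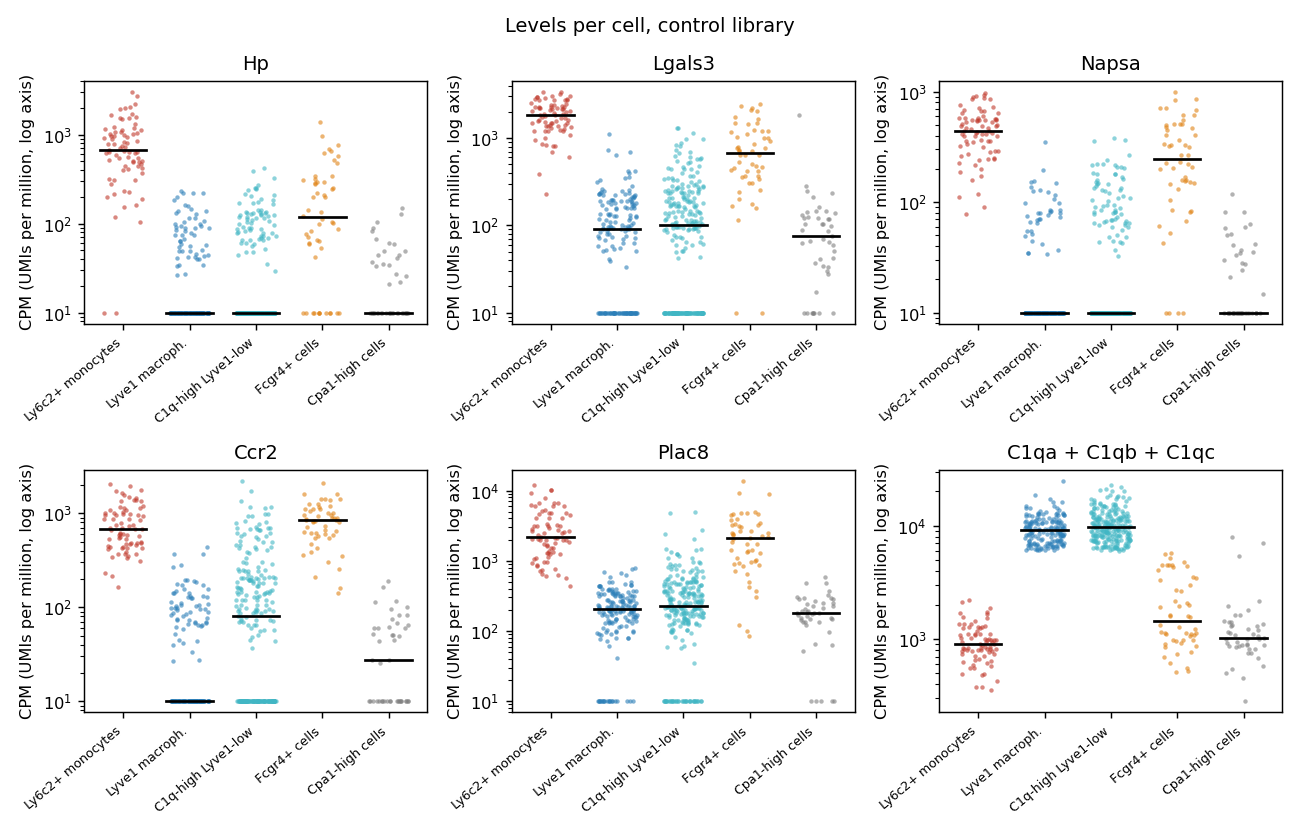
Levels of 5 monocyte genes and of summed C1q in each control cell (points; CPM on a log axis, with values under 10 drawn at 10) and their medians (lines) in the 5 populations. Hp, Lgals3 and Napsa are highest in the Ly6c2+ monocytes, Ccr2 and Plac8 are as high in the Fcgr4+ cells, and C1q in monocytes lies at the level of the Cpa1-high cells.

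Because deeper cells reach 3 Ly6c2 UMIs more easily, cells were also thinned to 5000 UMIs, which left out 5 monocytes, 1 Fcgr4-positive cell, 6 Lyve1 macrophages and 3 Cpa1-high cells. After thinning, Hp was seen in 91.4% of 70 monocytes (82.3% to 96.8%), 51.0% of Fcgr4-positive cells and 13.3% of Lyve1 macrophages, beside 11.9% of Cpa1-high cells, which should lack it. Unthinned shares were 97.3%, 76.9%, 33.5% and 46.7%. Ccr2 was seen in all 70 thinned monocytes and 96.1% of Fcgr4-positive cells, against 19.0% of Lyve1 macrophages and 14.3% of Cpa1-high cells. The thinned shares in Lyve1 macrophages were thus near those of the Cpa1-high cells for both genes. Free RNA was not measured, and its part in these shares was not tested.

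Promoter sequence is shown for 3 genes higher in these cells than in the 3 other myeloid populations. The letters GAGGAAGT, the core recognised by the myeloid factor PU.1, are in capitals on either strand (ACTTCCTC is the same match on the other strand). The sequences are RefSeq's for GRCm38.p6 and run 5′ to 3′ on the gene's strand from 250 bases before the most upstream RefSeq start, without bases that GENCODE places in an exon. Ly6c2 is chr15:75111972-75112221 on the minus strand, S100a8 chr3:90668821-90668977 on the plus strand and Lgals3 chr14:47373610-47373812 on the plus strand.
Ly6c2: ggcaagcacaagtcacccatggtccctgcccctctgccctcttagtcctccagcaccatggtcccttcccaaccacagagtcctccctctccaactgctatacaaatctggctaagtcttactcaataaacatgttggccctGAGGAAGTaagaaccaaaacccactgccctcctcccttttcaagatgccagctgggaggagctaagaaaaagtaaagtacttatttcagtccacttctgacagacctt
S100a8: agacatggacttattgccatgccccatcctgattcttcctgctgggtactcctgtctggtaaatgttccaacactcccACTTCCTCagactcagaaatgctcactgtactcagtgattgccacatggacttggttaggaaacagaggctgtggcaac
Lgals3: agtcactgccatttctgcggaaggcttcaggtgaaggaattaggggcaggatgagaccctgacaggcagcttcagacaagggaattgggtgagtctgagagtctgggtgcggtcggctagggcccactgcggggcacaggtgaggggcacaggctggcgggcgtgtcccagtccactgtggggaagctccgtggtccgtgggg

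The match began 108 bases before the RefSeq start of Ly6c2 and 172 before that of S100a8, and the Lgals3 window of 250 bases held none. The S100a8 window runs to chr3:90669070, beyond the printed bases, so its RefSeq start lies downstream of the GENCODE exon start. The windows before the RefSeq starts of Lyz2, Ccr2 and Plac8 held none either. Only the first 17 bases of the Ccr2 window lie before a GENCODE exon, and the Lgals3 window lies inside the gene span given above. These absences hold for the RefSeq windows only. GAGGAAGT occurred on either strand in the same window of 2.44% of the 32851 promoters in the table, or for 2.79% of 27025 gene symbols with any start counted. Among the listed genes it occurred for 2 of 23 classical monocyte genes (Ly6c2 included), 6 of 16 granulocyte and early myeloid granule genes (S100a8 included) and 2 of 20 resident macrophage genes. A match is a run of letters and not a measured binding site.

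The wider set of classical monocyte genes stood mostly above both macrophage populations. Against Lyve1 macrophages, 21 of 28 measured members were at least 2-fold higher and 1 was lower (median log2 ratio 2.55), beside 5.04% higher and 5.93% lower among all 8857 genes with 20 or more UMIs (446 and 525 genes, median −0.04). The list was chosen with results of these data known, so the count describes the cells and supports nothing on its own. Against C1q-high Lyve1-low macrophages 19 of 28 were higher and 1 lower, where 3.84% of 9077 genes were higher and 3.77% lower. Against Fcgr4-positive cells 8 of 28 were higher and 1 lower, where 2.9% of 7177 genes were higher and 1.18% lower. The list holds Ly6c2, which the rule made higher, and the other markers of the name, Hp, Lgals3 and Napsa. All 4 were among the genes higher than in each macrophage population, and 3 of them were higher than in Fcgr4-positive cells. The same shares of all genes apply to the counts of the other lists against these populations.

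Plac8, an abundant leukocyte transcript, had 432 to 12159 CPM in each monocyte (median 2200). Its summed level of 2708 CPM compared with 230.2 in Lyve1 macrophages and 2416 in Fcgr4-positive cells. Ccr2, the receptor through which monocytes leave the marrow, stood at 771 CPM (720 to 824), 14.2 times the Lyve1 macrophage level. The Fcgr4-positive cells had Ccr2 at 835, with a ratio of 0.923 (0.831 to 1.03) that includes equality. Ms4a4c behaved like Ccr2, at 448 in monocytes, 38.2 in Lyve1 macrophages and 511 in Fcgr4-positive cells.

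The interferon-induced membrane gene Ifitm6 was at 345 CPM against 16.4 in Lyve1 macrophages and 212 in Fcgr4-positive cells. Mcemp1, a mast cell and monocyte membrane gene, was at 322 against 15.5, 14.1 and 84.7. Vcan, which encodes the matrix proteoglycan versican, had 58 UMIs in 35 monocytes (51.9 CPM) and no more than 5.47 CPM elsewhere. Gsr, which encodes glutathione reductase, stood at 413 against 163 in the Fcgr4-positive cells. Lyz2 (lysozyme) gave 20256 CPM, with 1239 to 49851 per cell, against 2901 in Lyve1 macrophages and 11036 in Fcgr4-positive cells. Exceptions were F13a1 (755 against 1746 in Lyve1 macrophages), Tmem176b (143 against 617 in C1q-high Lyve1-low macrophages) and Chil3, a chitinase-like gene of adult classical monocytes, which had no UMI in any population.

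**Figure D2:**
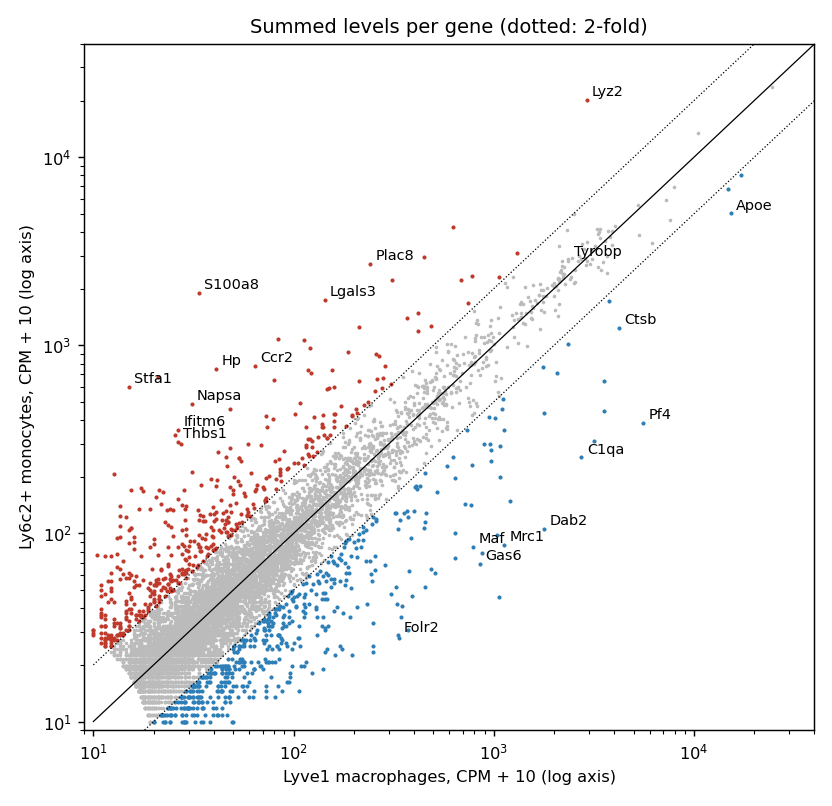
Level of each gene with 20 or more UMIs in Ly6c2+ monocytes (vertical) and Lyve1 macrophages (horizontal), CPM plus 10 on log axes; dotted lines mark 2-fold. The 446 genes higher in monocytes are red and include S100a8, Stfa1, Hp and Lgals3, and the 525 lower ones are blue and include Dab2, Pf4, Mrc1 and C1qa.

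Calcium-binding S100 genes and annexins followed the same order. Of 15 measured S100, annexin and galectin genes 11 were higher than in Lyve1 macrophages (median log2 ratio 2.41), 11 were higher than in C1q-high Lyve1-low macrophages (2.36) and 4 were higher than in Fcgr4-positive cells (0.84), with none lower in any comparison. S100a6 stood at 1071 CPM against 73.7, 75.2 and 619. S100a11 was at 1053 against 102 and 101 in the macrophages. Anxa1, a membrane-binding protein that limits neutrophil entry, was at 288 against 17.3, 42.1 and 153. The exceptions Lgals1, Lgals9, Anxa3 and Anxa5 lay within 2-fold in all 3 comparisons.

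Genes of clotting and matrix formed a small group of their own. Of 9 measured members 5 were higher than in Lyve1 macrophages and 2 lower, and the same 5 names (F10, Thbs1, Fn1, Vcan and Plaur) were higher than in Fcgr4-positive cells. F10, which encodes coagulation factor X, had 94 UMIs in 45 monocytes (84.0 CPM) against 3.18 in Lyve1 macrophages and 21.9 in Fcgr4-positive cells. Thbs1 (thrombospondin-1) stood at 296 against 16.4 and 113, and Fn1 (fibronectin) at 147 against 10.5 and 30.1. Complement C3, from outside the list, was at 165 against 7.28 and 68.3.

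Resident macrophage genes made the mirror image. Against Lyve1 macrophages 23 of 27 measured members were lower and 1 was higher (median log2 ratio −2.47); against C1q-high Lyve1-low macrophages 21 of 26 were lower and none higher (−1.82); against Fcgr4-positive cells 7 of 23 were lower and none higher (−0.66). The C1q genes, Lyve1 and the macrophage definitions overlap with the rule, so those members had to be lower. Among members that no definition used, the mannose receptor Mrc1 stood at 76.9 CPM against 1119 in Lyve1 macrophages, the growth-arrest ligand Gas6 at 59.0 against 846 and the folate receptor Folr2 at 18.8 against 323. In the Cpa1-high cells Mrc1 was at 87.1, Gas6 at 97.8 and Folr2 at 29.6, so the monocyte levels did not exceed those of the Cpa1-high cells. Dab2, an endocytic adaptor, and Pf4, a chemokine, were also among the lowest, at 95.7 against 1773 and 377 against 5563, with 125 and 471 in the Cpa1-high cells.

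Transcription factors separated the populations less. Against Lyve1 macrophages 9 of 25 measured members were higher and 3 lower, and against Fcgr4-positive cells none was higher and 1 lower. Maf, which maintains the macrophage state, was that gene, at 75.1 CPM in monocytes, 247 in Fcgr4-positive cells, 585 in C1q-high Lyve1-low macrophages and 778 in Lyve1 macrophages. Cebpb stood at 1475 CPM against 409, 503 and 1028, and Klf4, needed for the classical monocyte fate, at 159 against 49.5 in C1q-high Lyve1-low macrophages and 107 in Fcgr4-positive cells. Spi1, the gene for PU.1, differed by less than 2-fold from all 3, at 566 against 456, 501 and 574. Myb and Gfi1, genes of early progenitors, had no UMI in the 75 cells.

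Of 12 measured patrolling monocyte genes 6 were higher and 2 lower than in Lyve1 macrophages (median log2 ratio 0.90), and of 11 measured against C1q-high Lyve1-low macrophages 2 were higher and 2 lower. Cx3cr1 was at 131 CPM in monocytes, 346 in Fcgr4-positive cells and 764 in Lyve1 macrophages, and after thinning 42.9% of monocytes held a UMI, beside 33.3% of Cpa1-high cells. Nr4a1 was at 43.8 against 56.0 in Fcgr4-positive cells, and Ace had 2 UMIs. Fcgr4, which defined the comparison population, stood at 66.2 CPM and reached 11 UMIs in a monocyte. The 10 measured members had a median log2 ratio of −0.24 against the Fcgr4-positive cells, with 2 higher (Pglyrp1 and Ear2) and 2 lower (Cx3cr1 and Fcgr4). The Pglyrp1 ratio rested on few cells, since 5 monocytes held 73.3% of its UMIs and its log2 ratio without them was −0.23 rather than 1.00.

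Receptors for growth factors differed in direction from gene to gene. Csf1r, the receptor that sustains macrophages, was at 403 CPM against 999, 1101 and 787. Csf3r, the granulocyte colony-stimulating factor receptor, was at 77.8 against 17.7, 30.5 and 82.0. Of 19 cytokine receptor genes 6 were higher and 2 lower than in Lyve1 macrophages, and none passed 2-fold against Fcgr4-positive cells. Against Fcgr4-positive cells 1 of 11 chemokine genes was lower and none higher. Of 13 chemokine genes measured against Lyve1 macrophages 7 were lower and 3 higher. Ccl12 stood at 54.5 against 478, Ccl24 at 42.0 against 314 and Ccl2 at 119 against 344, whereas Ccl3, Ccl6 and Ccl9 were at 582, 363 and 612 against 267, 173 and 295.

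More adhesion genes were higher than lower against Lyve1 macrophages. Of 17 measured members 9 were higher than in Lyve1 macrophages and 1 lower. Against Fcgr4-positive cells 1 of 15 was higher and 1 lower (median log2 ratio −0.11). Itgb2, the common chain of the leukocyte integrins, was at 190.4 CPM against 39.6 and 123, and Itgb7 at 79.6 against 5.91 and 57.4. The P-selectin ligand gene Selplg was at 240.5 against 44.1 in Lyve1 macrophages. Itga6 was lower in all 3 comparisons, at 16.1 against 61.0, 94.9 and 56.0.

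Of 12 measured iron and heme genes only Hp was higher than in Lyve1 macrophages and 5 were lower. The exporter gene Slc40a1 was at 42.0 CPM against 441, heme oxygenase Hmox1 at 233 against 958 and Blvrb, which reduces biliverdin, at 89.4 against 627. Scavenger and efferocytosis receptors were also low, with 8 of 14 lower and none higher than in Lyve1 macrophages. Against Fcgr4-positive cells none of 12 scavenger genes passed 2-fold in either direction.

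**Figure D3:**
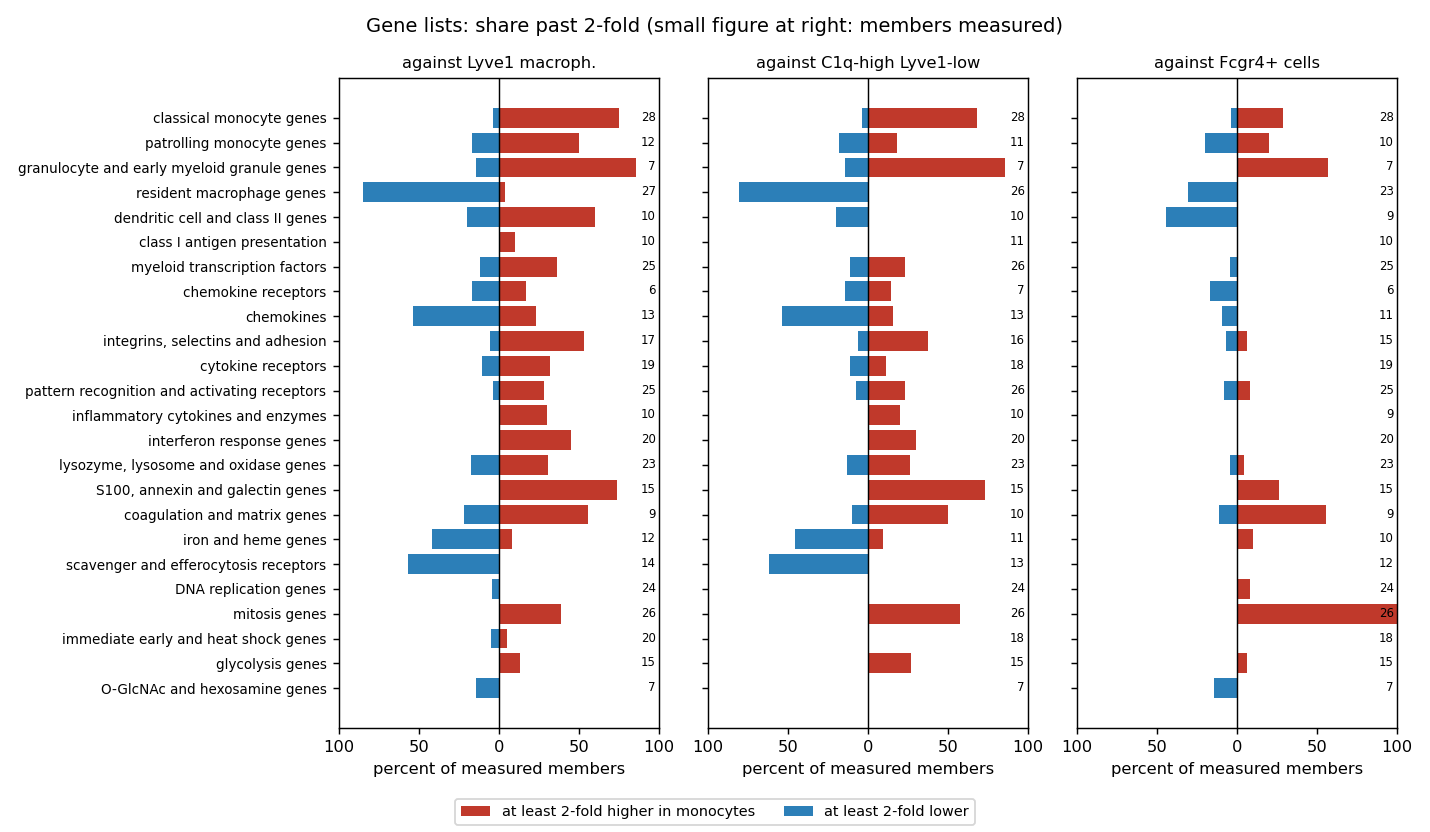
Share of the measured members of each gene list that was at least 2-fold higher (red, to the right) or lower (blue, to the left) in the monocytes than in each of the 3 other myeloid populations; the small number is how many members were measured. Classical monocyte and S100 genes point right, resident macrophage genes left, and all 26 mitosis genes are higher than in Fcgr4+ cells.

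The genes with the largest ratio to the Fcgr4-positive cells included granule and mitosis genes. S100a8, Stfa1, Ly6c2, Stfa3, Slpi, C1galt1c1, S100a9, Kpna2, Racgap1 and Ccna2 led, in that order. Slpi, a secreted protease inhibitor, had 75 UMIs in 32 monocytes and 1 UMI in the Fcgr4-positive cells. C1galt1c1, the chaperone of an enzyme that extends O-glycans, stood at 201 CPM against 23.2 (ratio 8.66, 5.29 to 15.1) and 20.9 and 20.1 in the macrophages, with 58 of 75 monocytes positive. In the other direction Lair1, Fcgr4, Rgs1, H2-Ab1, Adap2os, Rnase4, C3ar1, Maf, Cd74 and Ednrb led. Lair1, an inhibitory collagen receptor, had 9 UMIs in 6 monocytes (8.05 CPM against 80.6), and Rgs1 was at 70.6 against 282.

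Mitosis genes were the list that separated monocytes from Fcgr4-positive cells most completely. All 26 were at least 2-fold higher (median log2 ratio 1.72), 10 of 26 were higher than in Lyve1 macrophages and 15 of 26 higher than in the C1q-high Lyve1-low cells, with none lower. Ccnb2, a mitotic cyclin, stood at 210.1 CPM against 82.3, 68.1 and 53.3, and the centromere histone Cenpa at 310.2 against 137, 124 and 76.5. Of 24 DNA replication genes none was higher than in either macrophage population. Against Fcgr4-positive cells 2 of 24 were higher, beside 2.9% of all measured genes, and the median log2 ratio of the list was 0.67.

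The mitosis level came from a separate set of monocytes. Summed over the 26 genes it lay between 200 and 883 CPM in 38 cells, between 1571 and 2787 in 6 and between 4068 and 10106 in 31. These 31 cells were 41.3% of the monocytes (30.1% to 53.3%), beside 15.9% of Lyve1 macrophages (10.6% to 22.4%), 10.8% of C1q-high Lyve1-low macrophages (7.20% to 15.5%), 22.2% of Cpa1-high cells and 2 of 52 Fcgr4-positive cells (3.85%, 0.469% to 13.2%). Depth moved with it: the 31 cells had a median of 18435 UMIs and the 38 low ones 10079, and deep cells meet the Ly6c2 limit more easily. A changed rule asked for 2 or more Ly6c2 UMIs after thinning to 5000 UMIs and left out cells with fewer than 5000. Its other limits used the unthinned counts. It gave 54 monocytes, of which 44.4% were in the high range. Over 10 alternative definitions of the members the share ran from 37.0% to 44.4%. The changed C1q, mitochondrial and gene-number limits and the removal of doublets left the members unchanged. Their shares repeat the main one, so the range comes from the remaining definitions.

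Without these 31 cells the contrast with Fcgr4-positive cells shrank from 208 higher genes to 75, with 82 lower. The genes measured also fell, from 7177 to 6074, of which 1.23% were higher and 1.35% lower, and the 208 included the 26 mitosis genes by which the cells were left out. The other populations kept their own cells high in mitosis genes. Of 27 classical monocyte genes 21 were higher than in Lyve1 macrophages, where 4.75% of all genes were higher in that setting, and 9 of 27 were higher than in Fcgr4-positive cells. Of 22 DNA replication genes 7 were higher than in Fcgr4-positive cells and none lower (median log2 ratio 0.94).

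In monocytes high in mitosis genes several effector transcripts made up a smaller share of the UMIs. These cells were deeper (median 18435 UMIs against 10079), so a smaller share need not be a smaller amount per cell. Lyz2 had 9223 UMIs in the 31 high cells and 11229 in the 38 low ones. Lyz2 stood at 15913 CPM in the 31 high cells and 26794 in the 38 low ones, a ratio of 0.594 (0.578 to 0.611). Plac8 was at 1896 against 3994 and Ifitm6 at 236 against 546. Hp (766 against 773), Napsa (495 against 482) and Lgals3 (1874 against 1689) differed less. The granule genes went the other way, at 3131 CPM summed over the list against 1701, with S100a8 at 2673 against 1281, Stfa1 at 828 against 396 and S100a9 at 124 against 7.16. The S100a8 medians per cell were closer, at 108 and 93.0. All 3 cells with 10 or more S100a9 UMIs were among the 31, so the S100a9 difference rested on few cells. In 70 cells thinned to the same depth, the Spearman rho with the summed mitosis level was −0.65 for Lyz2, −0.53 for Ctss and −0.40 for Plac8. It was −0.16 for Ly6c2, −0.015 for S100a8, −0.074 for Stfa1 and 0.12 for S100a9. The cells share 1 library, and these values are descriptions.

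Interferon response genes also made up a smaller share of UMIs in the cells high in mitosis genes, at 4486 CPM summed over the list against 8545. Isg15, a ubiquitin-like interferon product, was at 38.0 against 265 and its regulator Irf7 at 93.2 against 415. Both were uneven, since 5 cells held 52.1% of all Isg15 UMIs and 44.3% of all Irf7 UMIs. Over all monocytes 9 of 20 interferon genes were higher than in Lyve1 macrophages (median log2 ratio 0.88), led by Ifitm6, Ifitm3 (2923 CPM against 437) and Irf7 (218 against 36.4). None of the 20 passed 2-fold against Fcgr4-positive cells. Without the 31 cells high in mitosis genes, 12 of 20 were higher than in Lyve1 macrophages.

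**Figure D4:**
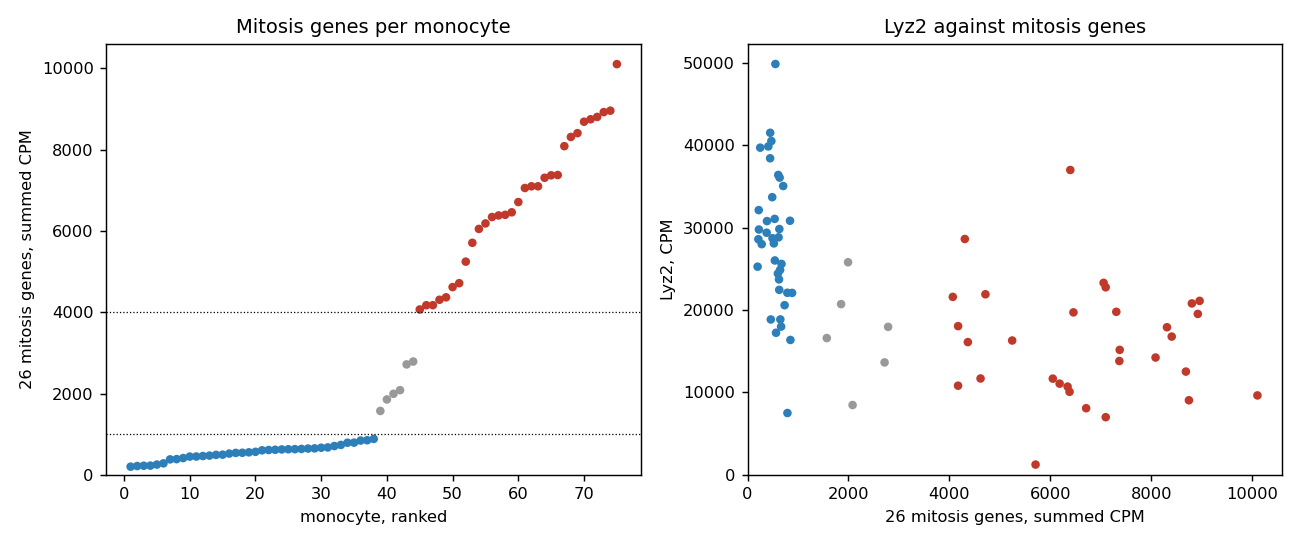
Left, summed level of 26 mitosis genes in each of the 75 monocytes, ranked, with dotted lines at 1000 and 4000 CPM (blue, 38 cells below; red, 31 cells above; grey, 6 between). Right, Lyz2 in the same cells against that level; the red cells lie mostly lower, with summed Lyz2 of 15913 against 26794 CPM.

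S100a8 was present in some monocytes and absent from others. The gene encodes a subunit of calprotectin, the antimicrobial calcium-binding dimer of neutrophils and monocytes, and lies on chr3:90668978-90670035. It had no UMI in 25 cells and up to 545 in another, with a median of 96.2 and a highest level of 26896 CPM. The summed level of 1886 CPM was 79.7 times that of Lyve1 macrophages (60.6 to 107) and 81.2 times that of Fcgr4-positive cells (50.6 to 140), which at 23.2 were close to the Cpa1-high cells at 21.5. The 5 cells with most S100a8 held 58.7% of its UMIs. After thinning, 48.6% of monocytes held a UMI (36.4% to 60.8%) against 9.80% of Fcgr4-positive and 9.52% of Cpa1-high cells, where the unthinned shares were 66.7%, 26.9% and 37.8%.

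The stefin genes Stfa1 and Stfa3, cysteine protease inhibitors, went with S100a8. Stfa1 was at 590.1 CPM in 41 cells and Stfa3 at 197 in 26, against at most 8.19 and 2.73 in the other myeloid populations. Over 70 thinned cells the Spearman rho with S100a8 was 0.70 for Stfa3, 0.67 for Stfa1, 0.48 for S100a11 and 0.38 for Hp. The partner subunit S100a9 was rare, with 76 UMIs in 10 cells, and 3 cells held 30, 19 and 17 of these. Those 3 cells had 115 to 545 S100a8 UMIs and held 37.3% of the S100a8 total. Without them S100a8 was at 1217 and S100a9 at 9.21 CPM. Among the 20 cells with 10 or more S100a8 UMIs, 12 had no S100a9 UMI.

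Several granulocyte genes were at or near 0. Of those of later neutrophil stages, Camp, Ngp, Ltf and Ly6g had no UMI in the 75 cells and Lcn2 had 1. Ms4a3, a gene of granulocyte and monocyte progenitors, had none. Of the primary granule genes, Ctsg had 1 UMI and Prtn3 (proteinase 3) stood at 125 CPM in 45 cells, against 6.82 in Lyve1 macrophages and 103 in Fcgr4-positive cells, whereas Mpo had 10 UMIs in 5 cells and Elane 3 UMIs. Mmp8, the neutrophil collagenase gene, stood at 99.2 CPM in 46 cells, against 3.64 in Lyve1 macrophages and 20.5 in Fcgr4-positive cells. Of 7 granule genes with enough UMIs, 6 were higher and 1 (Mmp9) lower than in Lyve1 macrophages, and 4 were higher than in Fcgr4-positive cells.

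Class II antigen presentation genes were concentrated in few monocytes. Cd74, the invariant chain, stood at 397 CPM against 69.1 in Lyve1 macrophages and 1205 in Fcgr4-positive cells, but 3 cells with 60 to 149 UMIs carried most of it, and without them it was at 148. H2-Aa, H2-Ab1 and H2-Eb1 gave UMIs in 14 cells, of which 3 had 2 or more. Their levels of 42.9, 41.1 and 18.8 CPM were at least 2-fold above Lyve1 macrophages, but without each gene's own 5 highest cells the log2 ratios turned from 1.65, 1.46 and 1.13 to −0.28, −0.76 and −0.40. Against Fcgr4-positive cells all 3 were lower, with log2 ratios of −1.88, −1.83 and −2.71. Flt3 had 6 UMIs in 4 monocytes, and Xcr1, Clec9a and Ccr7, markers of dendritic cells, had none.

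**Figure D5:**
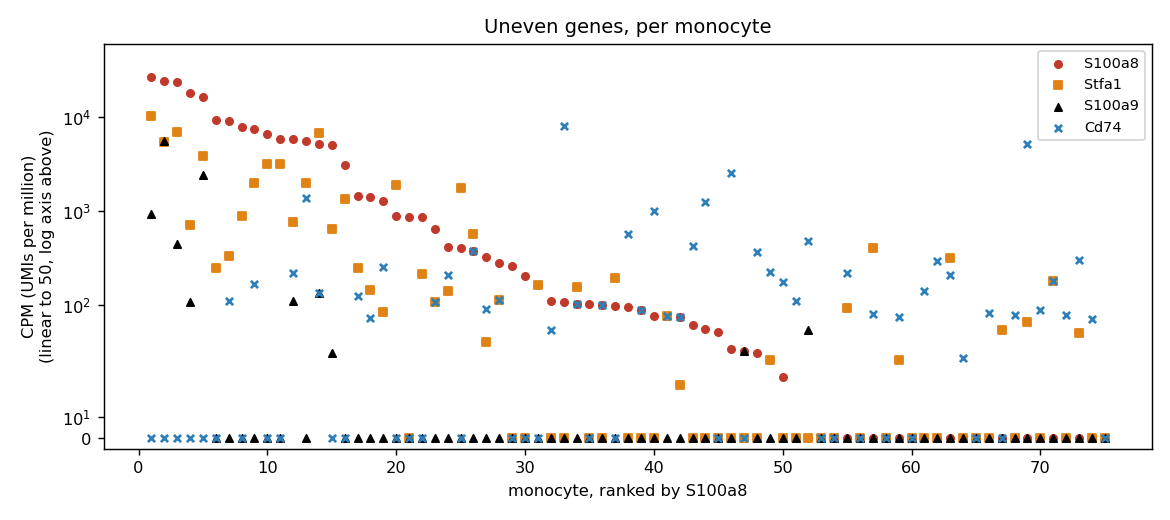
S100a8, Stfa1, S100a9 and Cd74 in each of the 75 monocytes, ranked by S100a8 (CPM, linear to 50 and log above). Stfa1 and S100a9 lie mostly among the cells rich in S100a8, which has no UMI in 25 cells, and the cells highest in Cd74 are elsewhere in the ranking.

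The same rule found 13 cells in the knockout library, 2.32% of its 561 filtered cells (1.24% to 3.93%). Their Ly6c2 stood at 898 CPM, Hp at 1106, Lgals3 at 1888 and Napsa at 475, with Hp in 13 of 13. With 1 library for each genotype, the lower share cannot be told apart from the different reporter used in the sort, and fewer than 20 cells were too few for a comparison of levels. The other myeloid populations were rarer there too: 4 Lyve1 macrophages, 7 C1q-high Lyve1-low macrophages and no Fcgr4-positive cell, which allows a share of up to 0.535%.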

How the data were processed

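UMI counts per gene and barcode were taken as deposited by the authors, 1 table per genotype. Per the submitters' processing notes, Cell Ranger 2.0.0, Seurat 2.0, DESeq2 1.14.1 and the mm10 build were used. The cell-calling filter and chemistry could not be learned from these sources. Of 27998 gene identifiers 27722 took a symbol from GENCODE M21, and the other 276 held 0.0143% of control UMIs. The sequencing runs of a genotype could not be separated and counted as 1 library.

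The members, the 34 gene lists and the rules were chosen with earlier results of these data known. Genes were named from the lists (up to 5 by level and 5 by ratio in each direction) and as the 20 largest ratios in each direction against Lyve1 macrophages and the 10 largest against the other populations, requiring 50 UMIs spread over 10 or more cells. Genes with fewer than 20 UMIs over both populations were left out of counts. The mitosis ranges, the S100a9, Cd74 and class II cell counts and Chil3 were singled out after their values were seen. Intervals are exact Poisson, exact conditional or exact binomial (Clopper-Pearson) at 95%, and a share of 0 is given the limit of 3 cells. The ratio interval and the 2-fold limit were tested on simulated Poisson counts without spread between cells. That test cannot show how the intervals hold for genes concentrated in few cells. Doublets were marked with Scrublet in scanpy 1.11.5, run on the control table. Python 3.11.15, scipy 1.17.1 and edgeR 4.0.16 (TMM only) were used. Alternatives covered the limits of the rule, filters, added value, scaling, summing and thinning. Results for some genes of the lists are not reported here.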

Additional observations from a re-analysis of the deposited data

How the results depend on the processing

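The number of monocytes stayed within 1.5 times of 75 under every alternative tried (54 to 92). The changed C1q, mitochondrial and gene-number limits and the removal of doublets could not alter it, since they left the same members. Of 117 alternative values of the main counts, 102 stayed within 1.5 times and 15 did not. The 102 include repeats of the main values, because the changed C1q and gene-number limits left every population unchanged. With 1 CPM added in place of 10, the higher and lower genes were 753 and 1101 against Lyve1 macrophages, 607 and 873 against C1q-high Lyve1-low macrophages, and 437 and 245 against Fcgr4-positive cells. With 50 added they were 161 and 148, 123 and 99, and 52 and 25. Against Fcgr4-positive cells, 138 genes were higher with at least 50 UMIs required, 138 were lower with totals that leave out ribosomal and mitochondrial genes (main values 208 and 85), and 75 were higher without the members high in mitosis genes, a setting added after seeing the data. No paired analysis was possible because the runs of a genotype share a table and no result comes from a test.

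Of 7276 alternative ratios of single genes, 6732 stayed close to the main value, 531 moved and 13 changed sign. Closeness was judged by the width of each gene's own counting interval, which is wide for genes with few UMIs. The 6732 include repeats of the main value from the changed C1q and gene-number limits. In all, 360 alternative values were under 2-fold, 150 of them with 50 CPM added and 76 without each gene's own 5 highest members. With Ly6c2 at 5 or more UMIs the log2 ratios to Lyve1 macrophages were −0.18 for H2-Aa, −0.59 for H2-Ab1 and −0.086 for H2-Eb1; with the thinned rule they were −0.043, −0.43 and −0.073; without each gene's own 5 highest members they were −0.28, −0.76 and −0.40. Pglyrp1 went to −0.23 against Fcgr4-positive cells without its own 5 highest members. Without the members high in mitosis genes, Kpna2 went to −0.79 against Lyve1 and −0.083 against C1q-high Lyve1-low macrophages, and Racgap1 to −0.85 against the latter. The mitosis genes were not followed in that setting, which is defined by them.

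Depth limits the genes with few UMIs, whose 2-fold calls are those that vary with the added value, and 1 library per genotype gives no spread between embryos.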

Other observations

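Of 7 measured O-GlcNAc and hexosamine genes 1 (Nagk) was at least 2-fold lower than in Lyve1 macrophages and none higher. Among all measured genes 5.93% were lower and 5.04% higher, so 1 of 7 differs little from that share. None of 7 passed 2-fold against C1q-high Lyve1-low macrophages. Against Fcgr4-positive cells 1 of 7 was lower and none higher, beside 1.18% and 2.9% of all measured genes. Ogt had 41 UMIs in 31 of the 75 cells (36.7 CPM, 26.3 to 49.7), against 71.0 in Lyve1 macrophages, 68.5 in C1q-high Lyve1-low macrophages, 67.0 in Fcgr4-positive cells and 34.1 in Cpa1-high cells. The ratio to Lyve1 macrophages was 0.517 (0.357 to 0.733). The gene of the opposing enzyme, Mgea5, was at 26.8 against 51.0, 43.2 and 32.8.

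Of 15 glycolysis genes 2 were at least 2-fold higher than in Lyve1 macrophages (median log2 ratio 0.54) and 4 than in C1q-high Lyve1-low macrophages (0.73). Against Fcgr4-positive cells 1 was higher (0.14), and none was lower in any of the 3. Among all measured genes 5.04%, 3.84% and 2.9% were higher in these comparisons. With 15 genes, counts of 2 and 1 differ little from such shares. Pfkp, a phosphofructokinase gene, was at 51.0 CPM against 3.64 in Lyve1 macrophages and 13.7 in Fcgr4-positive cells. The lactate transporter gene Slc16a3 was at 94.8 against 30.5 in Lyve1 macrophages.

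Sex-linked transcripts were mixed among the monocytes. UMIs of 4 Y-linked genes were found in 43 of the 75 cells, Xist was found in 14, both in 7 and neither in 25. Xist reached 9 or more UMIs in 6 cells, of which 2 also held a Y-linked UMI.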
